A study of Mus musculus with 6 samples.

Results

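The Myc, Max and Mxd network is a group of related transcription factors, described here by the transcripts of 10 genes: Myc, Mycn, Mycl, Max, Mxd1, Mxd3, Mxd4, Mxi1, Mnt and Mlx. The members were chosen by gene symbol, and all 10 were among the 24421 genes of the count table. RNA was sequenced from primary neural stem cells of the subventricular zone, the neurogenic lining of the lateral ventricles, taken from C57BL/6 mice at postnatal day 60. The treated group received PluriSIn#2, a small molecule that the series describes as an inhibitor of topoisomerase IIA, at 20 µM for 3 days. The control group received DMSO, the solvent, for the same time. Both groups were wild type and were grown with EGF and FGF2 at 20 ng/ml each, and the medium was changed after 24 h. Each group has 3 libraries, named by their titles. In the treatment field of PluriSIn#2 replicates 2 and 3, the number in the compound name differs from that in the titles. Their grouping thus rests on the titles, and a fit with replicate 1 alone is among the alternatives below. The labels do not give the number of animals or say whether replicates are separate cultures, so the spread behind each p-value may be technical.

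MYC proteins (from Myc, Mycn and Mycl) bind DNA only as dimers with MAX, at E-box sequences, where they activate genes of growth, ribosome production and proliferation. The MXD proteins (from Mxd1, Mxd3, Mxd4 and Mxi1) and MNT compete for MAX and for the same sites, and recruit SIN3 complexes with histone deacetylases that repress transcription. MLX is a second hub that pairs with MondoA, ChREBP, MNT and some MXD proteins. In the mouse, Mycn and Myc sustain neural progenitor expansion, Mxd3 is expressed in cycling cells in S phase, and Mxd1, Mxd4 and Mxi1 are known from cells that leave the cycle and differentiate.

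Promoter windows of RefSeq (GRCm38.p6, 250 bases before to 50 bases after the start site) were matched for 9 of the 10 members, all but Myc, in 11 windows. They were searched on both strands for the E-box letters CACGTG, the site of MYC-MAX and MXD-MAX dimers, and for the E2F letters TTTGGCGC and TTCCCGCC, sites of cell cycle regulated genes. The E-box stood in a window of 4 of the 9 matched members (Max, Mxd4, Mnt and Mlx), as in 11.4% of the 10891 tested genes with a window. The E2F letters stood in a window of 2 of the 9 (Mycn and Mxd3), as in 5.67% of those genes. Counted by window, the shares over all 32851 windows of the table were 7.15% for the E-box and 2.68% for the E2F letters. Shown first are Mxd3 and Mycn, the members with the largest falls, and then Max and Mxd4, whose transcripts were higher. All run from 5′ to 3′ on the strand of the gene, and capitals mark the letters found. The Mxd3 window is chr13:55329682-55329981 on the minus strand, the Mycn window chr12:12941787-12942086 on the minus strand, the Max window chr12:76962199-76962498 on the minus strand and the Mxd4 window chr5:34187661-34187960 on the minus strand.
Mxd3: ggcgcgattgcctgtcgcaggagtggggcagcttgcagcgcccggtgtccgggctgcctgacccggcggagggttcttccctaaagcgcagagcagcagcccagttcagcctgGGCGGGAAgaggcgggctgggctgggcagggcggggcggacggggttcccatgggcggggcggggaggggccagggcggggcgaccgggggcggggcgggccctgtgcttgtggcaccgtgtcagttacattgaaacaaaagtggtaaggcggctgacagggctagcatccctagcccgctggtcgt
Mycn: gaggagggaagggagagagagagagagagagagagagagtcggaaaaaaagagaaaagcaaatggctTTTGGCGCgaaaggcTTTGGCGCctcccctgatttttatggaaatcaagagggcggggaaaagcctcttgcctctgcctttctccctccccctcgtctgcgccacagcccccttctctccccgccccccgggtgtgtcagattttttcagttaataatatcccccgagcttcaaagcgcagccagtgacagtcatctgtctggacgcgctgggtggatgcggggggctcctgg
Max: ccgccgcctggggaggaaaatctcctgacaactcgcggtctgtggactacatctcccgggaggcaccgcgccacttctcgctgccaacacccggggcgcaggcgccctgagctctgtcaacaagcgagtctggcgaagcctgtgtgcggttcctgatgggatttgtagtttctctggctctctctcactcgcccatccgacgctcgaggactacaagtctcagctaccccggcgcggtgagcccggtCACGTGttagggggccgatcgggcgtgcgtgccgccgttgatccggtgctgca
Mxd4: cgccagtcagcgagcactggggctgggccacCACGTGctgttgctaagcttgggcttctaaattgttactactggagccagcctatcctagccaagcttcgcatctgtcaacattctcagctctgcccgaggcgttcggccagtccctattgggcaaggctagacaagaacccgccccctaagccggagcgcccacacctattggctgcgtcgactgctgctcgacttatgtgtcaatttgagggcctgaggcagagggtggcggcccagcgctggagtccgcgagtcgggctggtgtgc
In Mxd3 the match is GGCGGGAA, the reverse complement of TTCCCGCC, starting at -137 from the start site. In Mycn, TTTGGCGC occurs at -183 and again at -168. The E-box of Max starts at -3 and so spans the start site, while that of Mxd4 starts at -219. The windows of Mnt and Mlx hold CACGTG at -123 and -40. The printed windows do not stand for all members. Mnt, with the E-box, had lower transcripts, as had Mycl with neither set of letters, and Mxd1 and Mxi1 were higher with neither. A match is a description of the letters and not of a bound site.

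The treated cells held less RNA of all 3 MYC genes and far less of Mxd3, and more RNA of Mxd4, Mxd1 and Mxi1. Max and Mlx were slightly higher and Mnt slightly lower. In a quasi-likelihood test (edgeR, adjusted by Benjamini and Hochberg over 14417 genes) at an adjusted p under 0.05, all 10 members were called, 5 higher and 5 lower. The treatment moved most of the transcriptome: 82.6% of all genes tested were called, 41.7% higher and 40.9% lower. Against this background the number of members called is no result about them, and their directions and sizes are given below. At least 2-fold changes were called for 3 members (Myc, Mycn and Mxd3), and for 28% of all genes tested. CPM (read counts scaled for library size, with TMM factors) did not overlap between groups for any of the 10 members, as for 82.7% of all genes tested, 41.8% with all treated values higher and 40.9% with all lower. The median log2 fold change of the members was -0.04, beside 0.01 over all genes tested. In bulk RNA, fewer cells that express a gene and less RNA per cell cannot be told apart.

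**Figure D1:**
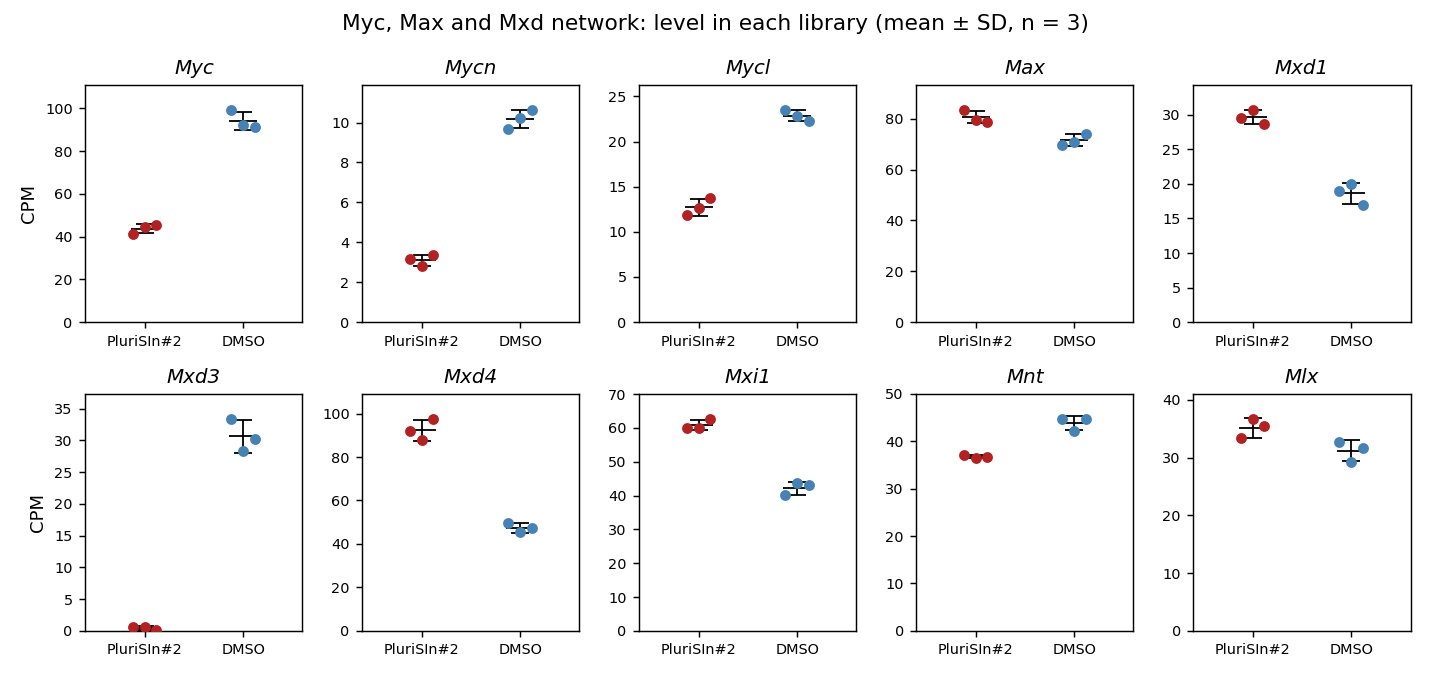
CPM of each member in every library (vertical axes in CPM, from 0), with PluriSIn#2 left of DMSO; points are libraries, bars are mean ± SD over 3 libraries. The groups do not overlap for any member, with Mxd3 at 0.18 to 0.66 CPM in PluriSIn#2 and 28.3 to 33.4 CPM in DMSO at one end and Max and Mlx, with small gaps, at the other.

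Libraries held between 16670962 and 19241869 counts, between 17300 and 17421 genes with a read in PluriSIn#2 and between 16909 and 16987 in DMSO. Top2a, the gene of the inhibited enzyme, fell to 6.01 ± 1.29 CPM in PluriSIn#2, against 878 ± 21.2 CPM in DMSO. It is also among the 10 markers of dividing cells given below. Of 13 neural stem cell markers, all measured, 5 rose (Gfap, Sox9, Msi1, Slc1a3 and Vim) and 8 fell, among them Nes, Sox2 and Egfr. Their summed CPM was 8340.2 to 8383 in PluriSIn#2 and 9063 to 9129 in DMSO, of which Vim and Slc1a3 made up the larger part. Gfap, also an astrocyte marker, had 299 ± 0.64 CPM in PluriSIn#2 and 42.0 ± 2.17 CPM in DMSO. All 10 markers of dividing cells fell, with a sum of 78.8 to 87.3 CPM in PluriSIn#2 against 3515 to 3554 CPM in DMSO. Of 13 macrophage and microglia markers 11 were measured and all 11 rose, with a sum over the 13 of 163 to 167 CPM in PluriSIn#2 and 2.98 to 4.09 CPM in DMSO, where Trem2 had no read. Markers near 0 CPM in DMSO, such as Trem2, Itgam (0.07 CPM) and Ptprc (0.11 CPM), passed the filter on low counts through the PluriSIn#2 group. Their direction was fixed by that, so the count of rises is no result. Of 8 fibroblast and mural markers 7 rose and Acta2 was not called. Their sum was 219.95 to 224.9 CPM in PluriSIn#2 and 23.7 to 24.6 CPM in DMSO. Of 7 endothelial markers 6 rose and Tek was not called, with a sum of 29.8 to 33.1 CPM in PluriSIn#2 and 6.24 to 7.62 CPM in DMSO. Cdh5 alone had 16.5 ± 1.85 CPM in PluriSIn#2 and 0.13 ± 0.03 CPM in DMSO. Cdh5 and Cldn5, and among the fibroblast markers Dcn and Lum, likewise passed the filter through the PluriSIn#2 group. Oligodendrocyte lineage markers fell in 7 of 7 measured, with a sum of 1729 to 1801 CPM in PluriSIn#2 and 1975 to 2064 CPM in DMSO. Of 6 neuronal markers 3 rose (Rbfox3, Snap25 and Syt1), 1 (Map2) fell, and Dcx and Tubb3 were not called. Their sum was 455 to 462 CPM in PluriSIn#2 and 930 to 980 CPM in DMSO. Map2 made up most of this sum, with 383 ± 1.59 CPM in PluriSIn#2 and 892 ± 24.7 CPM in DMSO.

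Among the MYC genes, Myc itself, the family member found in most proliferating cells, had 41.2, 44.5 and 45.4 CPM in the PluriSIn#2 libraries, against 99.1, 92.3 and 91.3 CPM in the DMSO libraries. The treated libraries lay close together and far below every DMSO library. The means were 43.7 ± 2.25 CPM in PluriSIn#2 and 94.2 ± 4.20 CPM in DMSO (SD, n = 3 each), a log2 fold change of -1.11 (SE 0.05, edgeR adjusted p = 1.88e-38). Of all genes tested, 10.1% had a lower log2 fold change. Its span is chr15:61985391-61990374 on the plus strand (GRCm38, from GENCODE, as for the genes below).

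Mycn, which drives expansion of neural progenitors in the embryo, was the scarcest of the 3 genes and fell the most. It had 56, 51 and 57 reads in the PluriSIn#2 libraries, or 3.16, 2.80 and 3.34 CPM, against 173, 182 and 199 reads in the DMSO libraries, or 9.69, 10.2 and 10.6 CPM. Treated libraries thus held about 30.4% of the DMSO mean (log2 fold change -1.72, SE 0.14, edgeR adjusted p = 4.50e-20). Mycn occupies chr12:12936093-12941914 (minus strand). On the log2(FPKM + 1) scale its log2 fold change was -1.11, since the pseudocount of 1 is large for a gene at this level.

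Mycl, the third MYC gene, which is dispensable for mouse development, had 11.8, 12.6 and 13.7 CPM in PluriSIn#2 and 23.5, 22.8 and 22.3 CPM in DMSO. The groups did not overlap, and the log2 fold change was -0.85 (SE 0.08, edgeR adjusted p = 6.00e-16). The gene occupies chr4:122995652-123002485 (plus strand). All 3 MYC genes were lower in every treated library than in any DMSO library, beside 40.9% of all genes tested. The summed markers of dividing cells moved the same way in the same libraries, and their part in these falls was not tested.

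Max, the shared partner, showed a small rise, with 83.3, 79.5 and 78.9 CPM in PluriSIn#2 against 69.7, 70.9 and 74.2 CPM in DMSO. The highest DMSO library came close to the lowest treated one. The fold of the means was 1.13 (log2 fold change 0.17, SE 0.04, edgeR adjusted p = 0.000174), and 57.8% of all genes tested had a lower log2 fold change, so that Max stood near the middle of all genes. Max occupies chr12:76937269-76962201 (minus strand).

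The antagonists did not move as one: Mxd4, Mxd1 and Mxi1 rose, Mnt fell slightly and Mxd3 almost disappeared. Mxd4 had 91.8, 87.8 and 97.4 CPM in PluriSIn#2 and 49.6, 45.3 and 47.1 CPM in DMSO. It rose 1.95-fold, with means of 92.3 ± 4.86 CPM in PluriSIn#2 and 47.3 ± 2.12 CPM in DMSO (SD, n = 3 each; log2 fold change 0.96, SE 0.05, edgeR adjusted p = 1.96e-34). Mxd4 occupies chr5:34173883-34187720 (minus strand).

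Mxd1, the founding MXD gene, known from differentiating cells such as maturing myeloid cells, had 29.6, 30.6 and 28.6 CPM in PluriSIn#2 and 19.0, 20.0 and 17.0 CPM in DMSO. Every treated library lay above every DMSO library, by a factor of 1.59 between the means (log2 fold change 0.67, SE 0.07, edgeR adjusted p = 4.01e-14). Macrophage markers were higher in the same libraries, as given above, and their part in the rise of Mxd1 was not tested. Mxd1 occupies chr6:86647042-86669161 (minus strand). Mxi1, the fourth MXD gene, also known as Mxd2, had 60.1, 60.0 and 62.6 CPM in PluriSIn#2 and 40.0, 43.6 and 43.0 CPM in DMSO. Its 3 treated libraries lay close together and well above DMSO (log2 fold change 0.53, SE 0.05, edgeR adjusted p = 1.38e-16). The gene spans 65.3 kb on the plus strand (chr19:53310518-53375810), and RefSeq lists several start sites for it, which counts per gene cannot separate. Of all genes tested, 83.0% had a lower log2 fold change than Mxd4, 76.5% than Mxd1 and 72.3% than Mxi1.

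Mxd3, the MXD gene of cycling cells, had 10, 12 and 3 reads in the PluriSIn#2 libraries against 596, 504 and 566 reads in the DMSO libraries. In CPM these were 0.56, 0.66 and 0.18 in PluriSIn#2 and 33.4, 28.3 and 30.2 in DMSO. The mean was 65.8-fold lower in PluriSIn#2 (log2 fold change -6.00, SE 0.16, edgeR adjusted p = 1.54e-52), and only 0.395% of the genes tested had a lower log2 fold change. Its treated value rests on 25 reads over 3 libraries, while each of the other 9 members had at least 51 reads in every library. Mxd3 passed the filter on low counts through the DMSO group. The summed level of dividing cell markers fell in the same libraries, and its part in the fall of Mxd3 was not tested.

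The size of the Mxd3 fall depended on whether read counts or FPKM were used. The FPKM of the authors (reads scaled by gene length and sequencing depth) were 3.75, 4.87 and 3.76 in PluriSIn#2 and 29.8, 26.0 and 28.4 in DMSO, a 6.81-fold difference of the means. Counts and FPKM together imply a length of 1037 to 1092 bases in the DMSO libraries but of 47.9 to 154 bases in the PluriSIn#2 libraries. For the other 9 members the implied length was equal between groups within 1%, as for 92.7% of 10209 genes with at least 100 counts in each library. At the length implied in DMSO, the treated counts of Mxd3 would correspond to 0.54, 0.63 and 0.17 FPKM. Mxd3 occupies chr13:55325168-55329823 (minus strand), and 105 bases at its end overlap exons of Prelid1, a gene of the opposite strand at 108 ± 2.66 CPM in PluriSIn#2 and 188 ± 2.94 CPM in DMSO. Whether reads in this overlap entered 1 table and not the other was not tested. The direction was the same in counts and FPKM. The authors' log2 fold change, deposited beside their FPKM, was -6.03, close to that of the counts.

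Mnt, the broadly expressed antagonist, had 37.2, 36.5 and 36.8 CPM in PluriSIn#2 against 44.6, 42.1 and 44.7 CPM in DMSO. The libraries of each group were close together, so that a fall to 84.1% of the DMSO mean was called (log2 fold change -0.25, SE 0.06, edgeR adjusted p = 2.95e-05). Mnt occupies chr11:74830920-74845725 (plus strand). Mlx had 33.3, 36.7 and 35.4 CPM in PluriSIn#2 and 32.7, 29.2 and 31.7 CPM in DMSO, and the lowest treated library was close to the highest DMSO library. Its log2 fold change of 0.17 (SE 0.06, edgeR adjusted p = 0.00819) was no longer called without DMSO replicate 2 (0.12, adjusted p = 0.0909), without PluriSIn#2 replicate 2 (0.14, adjusted p = 0.0562) or with PluriSIn#2 replicate 1 alone against DMSO (0.094, adjusted p = 0.346). The authors' deposited table gives Mlx an adjusted p of 0.0591. Mlx occupies chr11:101087277-101092207 (plus strand), and 385 bases of it overlap Psmc3ip on the opposite strand.

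**Figure D2:**
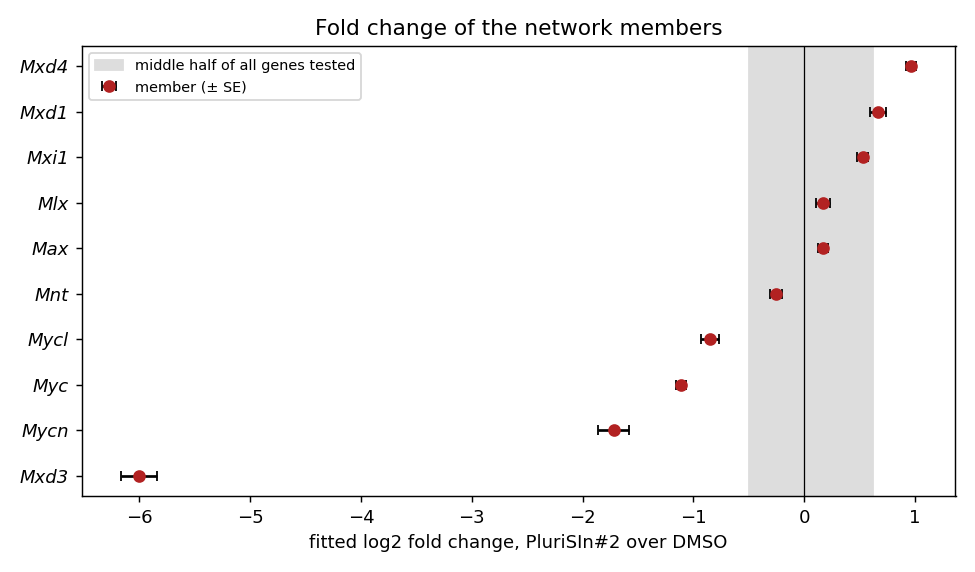
Fitted log2 fold change of each member (horizontal axis, PluriSIn#2 over DMSO; points with SE bars), with the range between the quartiles of all 14417 genes, -0.50 to 0.62, in grey. The 3 MYC genes and Mxd3 lie left of the grey range, Mxd4 and Mxd1 right of it, and the other 4 members within it.

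Set side by side per length, in FPKM, the order of the members differed between the groups. In PluriSIn#2, Mxd4 was the most abundant at 78.6 ± 4.16 FPKM, before Max (40.4 ± 1.24), Myc (18.3 ± 0.93) and Mlx (18.2 ± 0.81), all in FPKM (SD, n = 3). In DMSO, Mxd4 (38.5 ± 1.69 FPKM) and Myc (37.6 ± 1.70 FPKM) stood level, before Max (34.2 ± 1.07 FPKM) and Mxd3 (28.1 ± 1.93 FPKM). The ranges of Myc and Mlx overlapped in PluriSIn#2, as did those of Mxd3 and Mycl, and in DMSO those of Mxd4 and Myc and of Mxd1 and Mycn. All other neighbours in the order were apart in all libraries. The treated counts of Mxd3, at its length implied in DMSO, would place it below Mycn, at 0.54, 0.63 and 0.17 FPKM. The order also rests on the lengths behind the FPKM. For Mxd4, counts and FPKM imply 1201 to 1203 bases, beside 8483 bases in all its GENCODE exons. In CPM, without length, the means in DMSO were 94.2 for Myc, 71.6 for Max and 47.3 for Mxd4. In PluriSIn#2 they were 43.7, 80.6 and 92.3 CPM.

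The ratio of Myc to Mxd4 transcripts per length was 0.22, 0.25 and 0.23 in the PluriSIn#2 libraries and 0.98, 0.999 and 0.95 in the DMSO libraries. Myc over Max was 0.41, 0.47 and 0.48 in PluriSIn#2 and 1.19, 1.09 and 1.03 in DMSO, and Mxd4 over Max was 1.87, 1.88 and 2.10 in PluriSIn#2 and 1.21, 1.09 and 1.08 in DMSO. The groups did not overlap in any of these ratios, which describe RNA and say nothing of dimers or protein. The level of a ratio with Mxd4 depends on the length behind its FPKM.

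Summed over the 3 MYC genes, the level was 23.0 ± 1.18 FPKM in PluriSIn#2 and 47.3 ± 1.68 FPKM in DMSO. Myc made up 79.6% of it in PluriSIn#2 and 79.4% in DMSO, a similar share in both groups. Summed over Mxd1, Mxd3, Mxd4, Mxi1 and Mnt, the level was 109 ± 3.73 FPKM in PluriSIn#2 and 87.4 ± 3.40 FPKM in DMSO. Mxd4 held 72.1% of that sum in PluriSIn#2 and 44.0% in DMSO, whereas Mxd3 held 3.80% in PluriSIn#2 and 32.1% in DMSO. The MYC sum over the MXD and MNT sum was 0.20, 0.22 and 0.21 in PluriSIn#2, against 0.54, 0.56 and 0.53 in DMSO. Leaving out Mxd3, whose 2 measures differ, gave 0.21, 0.23 and 0.22 in PluriSIn#2 and 0.81, 0.81 and 0.78 in DMSO. These sums are descriptions, carry no test and depend on the length behind the FPKM of Mxd4.

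**Figure D3:**
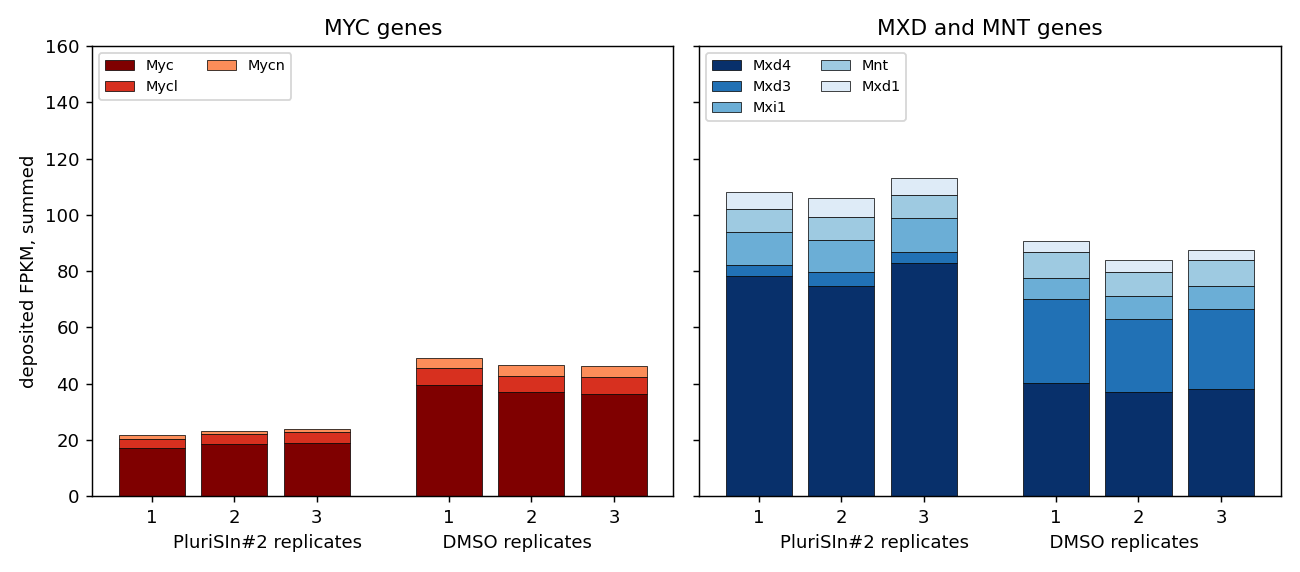
Deposited FPKM of the MYC genes (left) and of the MXD and MNT genes (right), stacked by gene (vertical axis, summed FPKM), with the 3 PluriSIn#2 libraries left of the 3 DMSO libraries in each panel. In PluriSIn#2 the MYC stack is lower and the right-hand stack is mostly Mxd4 (72.1%), with a thin Mxd3 layer.

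Of 4 other partners of the network, 3 fell, none rose and 1 was not called. Their median log2 fold change was -0.40, beside 0.01 over all genes, of which 40.9% were called lower and 41.7% higher. Mga, a large MAX partner that represses genes, had 88.6 ± 4.59 CPM in PluriSIn#2 and 136 ± 0.75 CPM in DMSO (log2 fold change -0.61, SE 0.04, edgeR adjusted p = 9.11e-28). Zbtb17, which encodes MIZ1, the zinc finger partner through which MYC represses genes, fell by 0.41 on the log2 scale, and Mlxip, which encodes MondoA, by 0.39. Mlxipl, which encodes ChREBP, was scarce at 0.90 CPM in PluriSIn#2 and 0.68 CPM in DMSO and was not called.

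Both the activating and the repressing cofactors were mostly lower. Of 14 activating cofactors 13 fell and 1 rose (median log2 fold change -0.60), beside 40.9% of all genes called lower. Trrap, the scaffold that brings acetyltransferases to MYC and the most abundant of them, had 220 ± 1.69 CPM in PluriSIn#2 and 340 ± 12.1 CPM in DMSO (log2 fold change -0.63, SE 0.03, edgeR adjusted p = 1.77e-37). Actl6a (-1.15), an actin-related subunit of chromatin complexes, and Ruvbl2 (-1.10), an ATPase of the same acetyltransferase complex, had the largest falls by log2 fold change. The exception, Cdk9, the elongation kinase, had a log2 fold change of 0.10 (edgeR adjusted p = 0.0355), called under 9 of the 15 alternatives and not under the others.

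Of 16 SIN3 and NCOR corepressor genes, 13 fell, 2 rose and Brms1 was not called (median log2 fold change -0.54, beside 0.01 over all genes, of which 40.9% were called lower and 41.7% higher). The 2 paralogous scaffolds that MXD proteins bind parted: Sin3b rose to 286 ± 8.19 CPM in PluriSIn#2, against 144 ± 3.56 CPM in DMSO (log2 fold change 0.99, SE 0.03, edgeR adjusted p = 3.10e-49), while Sin3a fell to 83.9 CPM in PluriSIn#2, against 118 CPM in DMSO (log2 fold change -0.49). Sap18 also rose (log2 fold change 0.44). Sap30 (-1.29), a SIN3 complex subunit, and the deacetylase gene Hdac2 (-1.02) fell the most by log2 fold change. Ncor1, the most abundant, had 259 ± 6.39 CPM in PluriSIn#2 and 409 ± 5.16 CPM in DMSO.

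Of 16 genes that act on the stability of MYC proteins, 13 fell, 1 rose and 2, Trim32 and Fbxo28, were not called (median log2 fold change -0.32, beside 0.01 over all genes, of which 40.9% were called lower and 41.7% higher). The riser was Fbxw7, the ubiquitin ligase subunit that recognises phosphorylated MYC, at 78.9 ± 2.30 CPM in PluriSIn#2 and 48.5 ± 0.83 CPM in DMSO (log2 fold change 0.70, SE 0.05, edgeR adjusted p = 1.75e-25). Aurka, a mitotic kinase that shields MYCN from FBXW7 in human neuroblastoma cells, fell to 1.83 ± 0.37 CPM in PluriSIn#2, against 86.5 ± 2.25 CPM in DMSO. Skp2, the ubiquitin ligase subunit of S phase, fell to 8.40 ± 1.02 CPM in PluriSIn#2, against 67.7 ± 0.97 CPM in DMSO. Both are also cell cycle genes, and they moved with the markers of dividing cells. Huwe1, a giant ubiquitin ligase and the most abundant of these genes, fell by 0.86 on the log2 scale. Usp37, the deubiquitinase named in the series title, which stabilises MYC in human cancer cells, had 28.8 ± 1.04 CPM in PluriSIn#2 and 85.0 ± 3.32 CPM in DMSO.

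Of 48 genes known as activated by MYC, 44 fell, 3 rose and 1 was not called, with a median log2 fold change of -0.80 beside 0.01 over all genes. Over all genes tested, 40.9% were called lower and 41.7% higher. The list, like the others here, was chosen with earlier results of these data known, and it holds cell cycle genes such as Cdk4 and Cdc25a. The markers of dividing cells fell in the same libraries, and their part in these falls was not tested. The largest falls were those of Cdca7, a chromatin factor gene of proliferating cells, at 15.5 ± 1.84 CPM in PluriSIn#2 and 109 ± 2.02 CPM in DMSO (log2 fold change -2.81), and Slc1a5, a glutamine transporter gene, at 6.37 ± 1.33 CPM in PluriSIn#2 and 42.4 ± 0.90 CPM in DMSO (log2 fold change -2.73). The 3 that rose were Ccnd2, a D-type cyclin gene and the most abundant of the list (2157 ± 14.9 CPM in PluriSIn#2 and 1898 ± 17.5 CPM in DMSO), Phb, a mitochondrial prohibitin gene (log2 fold change 0.56), and Tert (0.83), the telomerase gene, at 2.19 CPM in PluriSIn#2 and 1.22 CPM in DMSO. Tert had 2.09, 1.97 and 2.52 CPM in the PluriSIn#2 libraries and 1.01, 0.79 and 1.87 CPM in the DMSO libraries. Without DMSO replicate 2, Ccnd2 and Phb were still called higher and Tert was not. Odc1, a classical target that starts polyamine synthesis, fell by 0.24 on the log2 scale. Slc16a1 had a log2 fold change of -0.07.

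Of 9 measured genes known as repressed by MYC, 7 rose, 1 fell and 1, Cebpa, was not called (median log2 fold change 0.60, beside 0.01 over all genes, of which 41.7% were called higher and 40.9% lower). The sum of fibroblast and mural markers and the astrocyte marker Gfap were higher in the same libraries, as given above, and their part in these rises was not tested. Ndrg2, a differentiation gene of astrocytes, rose to 683 ± 6.62 CPM in PluriSIn#2, against 119 ± 1.54 CPM in DMSO. Thbs1, a matrix glycoprotein gene, rose to 47.9 ± 2.07 CPM in PluriSIn#2, against 10.5 ± 0.12 CPM in DMSO. Cdkn1a, the most abundant, encodes the kinase inhibitor p21 and is a p53 target as well, and had a log2 fold change of 2.05. Cdkn1b, which encodes the related inhibitor p27, went the other way (log2 fold change -0.73). Dkk1 was not tested because of low counts.

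Of 4 measured genes known as targets of MLX dimers, 3 rose and 1 fell (median log2 fold change 0.58), while 82.6% of all genes were called, 41.7% higher and 40.9% lower, with a median of 0.01. Txnip, the glucose-responsive gene most used as a MondoA readout, had 75.0 ± 2.12 CPM in PluriSIn#2 and 10.4 ± 0.96 CPM in DMSO (log2 fold change 2.85, SE 0.06, edgeR adjusted p = 3.99e-58). Its paralogue Arrdc4, regulated the same way, had 43.5 ± 1.496 CPM in PluriSIn#2 and 21.7 ± 1.32 CPM in DMSO (2.01-fold). Gpd1, whose enzyme links glycolysis to lipid synthesis, the most abundant of these, rose by little (0.16 on the log2 scale), while Klf10, a zinc finger factor gene that also responds to TGF-beta, fell by 2.28 on the log2 scale. Pklr was not tested because of low counts.

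**Figure D4:**
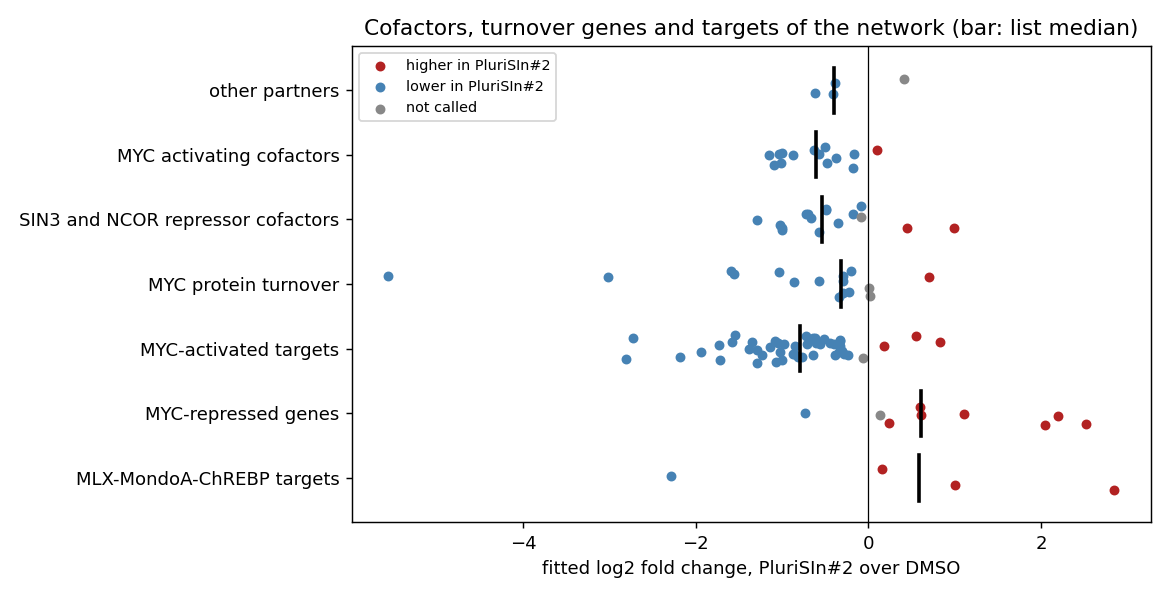
Fitted log2 fold change of each measured gene (horizontal axis, PluriSIn#2 over DMSO) in 7 lists of partners, cofactors, turnover genes and targets, coloured by the edgeR call; black bars are list medians. Cofactors and MYC-activated targets lie mostly left of 0 (medians -0.60, -0.54 and -0.80), and MYC-repressed genes mostly right of it (median 0.60).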

How the data were processed

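RNA-seq was read from 2 tables. The submitters' processing notes name mm10, the aligner STAR, the counter HTSeq, and DESeq. For versions, annotation and strand setting: not given in the sources used here. One deposited table holds whole-number read counts per gene symbol. The second table holds FPKM made by the authors, with the authors' deposited log2 fold changes (PluriSIn#2 over DMSO) and p-values; 25 date-like gene names in it were not used.

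Counts were fitted in edgeR 4.0.16 (R 4.3.3) with filterByExpr (14417 of 19218 genes with a read), TMM, glmQLFit and glmQLFTest, two-sided, with the group as the only term and Benjamini-Hochberg adjustment over all genes tested, at 0.05. SEs are the fitted coefficient over the root of its F statistic. CPM use totals times TMM factors. The script was tested on simulated data in which few genes changed, as many up as down. That test does not cover scaling or false calls where most genes change, as here. Alternatives used DESeq2 1.42.0, limma 3.58.1, other scalings and filters, and fewer libraries. Replicates were not copies: chi-square per degree of freedom was at least 1.56 within groups.

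Named genes were the 10 members, Top2a, Usp37 and, from each of 7 lists, the most abundant gene and the 2 genes that rose most and the 2 that fell most, if called, at 5 CPM or more and without overlap of the groups. Sin3a, Mlxip, Mlxipl, Odc1, Tert, the marker genes and genes named as not called were added after their values were seen. Members and lists were chosen with earlier results of these data known. Spans come from GENCODE M21 (GRCm38, equivalent to mm10).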

Additional observations from a re-analysis of the deposited data

How the results depend on the processing

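Of 150 log2 fold changes of the 10 members under 15 alternatives, 147 kept their direction and their side of the threshold. The other 3 were those of Mlx, no longer called: 0.094 with PluriSIn#2 replicate 1 alone against DMSO, 0.12 without DMSO replicate 2 and 0.14 without PluriSIn#2 replicate 2. Over all 6 fits that left out 1 library, Mlx lay between 0.12 and 0.21, and the other 4 of these fits called it. Between 9 and 10 members were called under every alternative, always with 5 lower. For Mxd3 the log2 fold change was -2.51 and -2.75 on log2(FPKM + 1) and log2(FPKM + 0.1), and between -6.33 and -5.63 in all fits on counts. The number of activating cofactors called higher was 1 in the analysis reported, and 0 with DESeq2, with PluriSIn#2 replicate 1 alone and with no filter on low counts; it was 0 to 1 when 1 library was left out. The number of turnover genes called higher was 1, and 2 with library totals alone, which added Fbxo28. A replicate block, with the number in the titles as a term, called 11851 genes, against 11915 without it, and changed no call of a member (Mlx 0.17). The numbers share no deviation (correlations of -0.0025, 0.012 and -0.0025 between same-numbered libraries), so they are not taken as pairs. Depth limits the treated value of Mxd3, which rests on 25 reads.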

Other observations

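Pvt1, a long noncoding RNA gene that begins 47.6 kb beyond the end of Myc on chromosome 15, was named after its values were seen. It had 56.7, 56.4 and 56.3 CPM in PluriSIn#2 and 44.3, 48.0 and 43.9 CPM in DMSO (log2 fold change 0.31, SE 0.05, edgeR adjusted p = 2.78e-08), while Myc was lower in the same libraries.

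Over 10891 tested genes with a RefSeq promoter window, the 1244 with CACGTG in it had a median log2 fold change of -0.04, with 39.1% called higher and 43.2% lower. The 9647 without it had a median of 0.02, with 42.1% higher and 40.9% lower. The 617 genes with the E2F letters used above had a median of -0.19, with 30.5% higher and 52.8% lower, and the 10274 without them a median of 0.03, with 42.5% higher and 40.5% lower. These are descriptions with no test; base composition and expression level were not matched.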
